A study of Mus musculus with 12 samples.

Results

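Genes that set the width of liver blood vessels and answer blood flow were measured in whole livers and in purified liver sinusoidal endothelial cells (LSEC) of mice with nonalcoholic steatohepatitis (NASH), a fatty and inflamed liver. The 10 genes were taken by symbol: the nitric oxide synthase Nos3, the endothelin genes Edn1, Ece1, Ednra and Ednrb, the prostanoid enzymes Ptgs1, Ptgs2 and Ptgis, and the flow-responsive transcription factors Klf2 and Klf4. Each had 1 row among 16703 genes in the liver table and 1 row among 16273 genes in the LSEC table. The 4 groups were livers of mice on a NASH diet, livers of mice on chow, LSEC of mice on the NASH diet and LSEC of mice on chow, with 3 libraries each. All mice were C57BL/6, a common inbred strain, and the labels name no transgene or drug and give no age. The NASH diet was the Research Diets formula D09100301, given for 36 weeks per a protocol that the labels attach to every sample, and no separate duration is stated for chow. Livers had been frozen before RNA extraction, whereas LSEC came from a dissociated liver from which CD11b+ cells were first removed and CD146+ cells then collected on magnetic beads. No source used here says that the 3 libraries of a group came from 3 animals, so p-values here measure only how much these libraries spread, which may be technical.

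The sinusoids are the liver's capillaries, and their resistance is set by a balance of signals between endothelial cells and the contractile stellate cells around them. Nitric oxide from Nos3 and prostacyclin made by Ptgis relax these vessels, and endothelin-1, the peptide encoded by Edn1, constricts them. Endothelin-1 is cut from its precursor by Ece1 and acts on Ednra, which mediates contraction, and on Ednrb, which in endothelial cells is linked to nitric oxide release and to peptide clearance. Klf2 and Klf4 are induced in endothelium by laminar flow and are known activators of Nos3 and repressors of Edn1.

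Promoter sequences are shown for 5 members: Klf2 and Klf4, the flow-induced factors, and Edn1, Ednrb and Ptgs2, whose NASH libraries all lay above the chow libraries in LSEC. They are RefSeq sequences on GRCm38.p6, each 300 bases long, from 250 bases before to 50 after the transcription start, and 8 of the 10 members matched a window. Capitals mark matches to the letters CACCC, the core of a KLF element, to GAGACC, a shear stress response element, and to the MEF2 element, on either strand. The windows are chr8:72318812-72319111 on the plus strand for Klf2, chr4:55532426-55532725 on the minus strand for Klf4 and chr13:42301226-42301525 on the plus strand for Edn1. Ednrb is shown from chr14:103843652-103843951 on the minus strand and Ptgs2 from chr1:150099781-150100080 on the plus strand.
Klf2: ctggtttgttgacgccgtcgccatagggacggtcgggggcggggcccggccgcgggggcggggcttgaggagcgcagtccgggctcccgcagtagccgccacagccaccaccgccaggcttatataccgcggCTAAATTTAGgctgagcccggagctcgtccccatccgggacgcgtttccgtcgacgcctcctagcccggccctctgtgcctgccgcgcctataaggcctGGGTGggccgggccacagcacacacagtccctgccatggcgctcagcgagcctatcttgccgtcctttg
Klf4: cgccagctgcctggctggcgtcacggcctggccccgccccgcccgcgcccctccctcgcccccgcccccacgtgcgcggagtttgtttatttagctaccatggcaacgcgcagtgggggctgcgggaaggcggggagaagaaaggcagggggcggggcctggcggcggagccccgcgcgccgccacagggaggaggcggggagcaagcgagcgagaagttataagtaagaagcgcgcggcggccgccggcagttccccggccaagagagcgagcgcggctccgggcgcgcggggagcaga
Edn1: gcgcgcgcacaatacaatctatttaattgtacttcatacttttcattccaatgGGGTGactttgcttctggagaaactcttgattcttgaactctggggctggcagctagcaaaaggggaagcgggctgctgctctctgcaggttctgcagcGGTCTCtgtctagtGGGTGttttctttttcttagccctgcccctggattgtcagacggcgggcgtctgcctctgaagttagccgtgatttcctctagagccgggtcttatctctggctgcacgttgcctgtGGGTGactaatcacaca
Ednrb: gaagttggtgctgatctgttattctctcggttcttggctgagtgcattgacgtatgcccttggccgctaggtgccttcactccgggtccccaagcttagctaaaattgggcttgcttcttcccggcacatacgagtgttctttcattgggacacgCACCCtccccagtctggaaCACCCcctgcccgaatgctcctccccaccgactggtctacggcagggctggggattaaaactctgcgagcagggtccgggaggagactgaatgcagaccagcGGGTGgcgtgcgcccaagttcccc
Ptgs2: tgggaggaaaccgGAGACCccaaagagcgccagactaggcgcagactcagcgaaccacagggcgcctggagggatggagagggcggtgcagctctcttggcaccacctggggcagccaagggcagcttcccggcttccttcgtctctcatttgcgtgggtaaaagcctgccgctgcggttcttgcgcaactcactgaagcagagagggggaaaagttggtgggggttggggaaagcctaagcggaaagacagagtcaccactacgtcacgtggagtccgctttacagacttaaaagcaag
The Klf2 window holds 1 match to the MEF2 element at positions -118 to -109 from the start, and 3.19% of 32851 RefSeq promoters of this length hold one. MEF2 proteins are the known link from flow through the kinase ERK5 to Klf2. The 8 matched members had 11 windows, and a match in any window of a member counted, whereas the percentages are over single promoters. A KLF core was present in 5 of the 8 matched members and in 57.5% of all promoters, with 3 matches each in Edn1 and Ednrb and 1 in Klf2. GAGACC was present in 2 of the 8, Edn1 and Ptgs2, and in 16.4% of all promoters. The AP-1 letters TGANTCA were in none of the 8 members and in 7.81% of promoters, and the cAMP response letters TGACGTCA were in none and in 1.79%. These matches describe letters in a window and not binding.

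Liver libraries held between 47000197 and 57397720 reads, and LSEC libraries between 18527017 and 19402863. The tables hold reads normalized by the authors within each tissue, so a level can be compared between diets within a tissue but not directly between the tables. The LSEC libraries carried sinusoidal endothelial markers, and the 10 genes of that list summed to 337794 to 353095 normalized reads in NASH LSEC, against 581824 to 620517 in chow LSEC. Other cells were also present. The 10 macrophage markers summed to 58038 to 72821 in NASH LSEC, against 12510 to 35438 in chow LSEC. The hepatocyte markers summed to 35461 to 72906 in NASH LSEC and to 6706 to 79660 in chow LSEC. In liver, the 11 stellate cell and pericyte markers summed to 42213 to 57817 in NASH and 27069 to 31237 in chow, and 6 of them were called higher. None of the marker genes was at 0 in every library of a tissue.

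In NASH livers 6 of the 10 genes differed from chow at an adjusted p under 0.05, by limma with Benjamini-Hochberg adjustment over all genes. Edn1, Ednra, Ptgs2 and Ptgis were higher, Ece1 and Klf2 were lower, and Nos3, Ednrb, Ptgs1 and Klf4 did not pass the test. Across all liver genes 46% were called, 25% higher and 21% lower, so a share of 6 in 10 is not far from the background. The members' median log2 fold change of NASH over chow was 0.08, beside 0.02 over all liver genes. In bulk tissue, fewer cells of a type and less RNA per cell cannot be told apart.

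In NASH LSEC 1 of the 10 genes was called, Ptgis, which was lower, against 8.11% of all LSEC genes, 5.24% higher and 2.86% lower. At an unadjusted p under 0.05 there were 6, a count for which no share over all genes was computed. The authors' deposited table called 5, and 2539 of the 16273 LSEC genes in all. DESeq2 on the recovered reads also called 5, and 2503 genes in all. The 5 in the authors' deposited table were Edn1, Ednrb, Ptgs1, Ptgs2 and Ptgis. The median log2 fold change of the members was -0.02 in LSEC, and 0.00 over all LSEC genes. Leaving out 1 library gave 0 to 2 calls, with 2 without chow replicate 1 and 0 without any other single library.

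**Figure D1:**
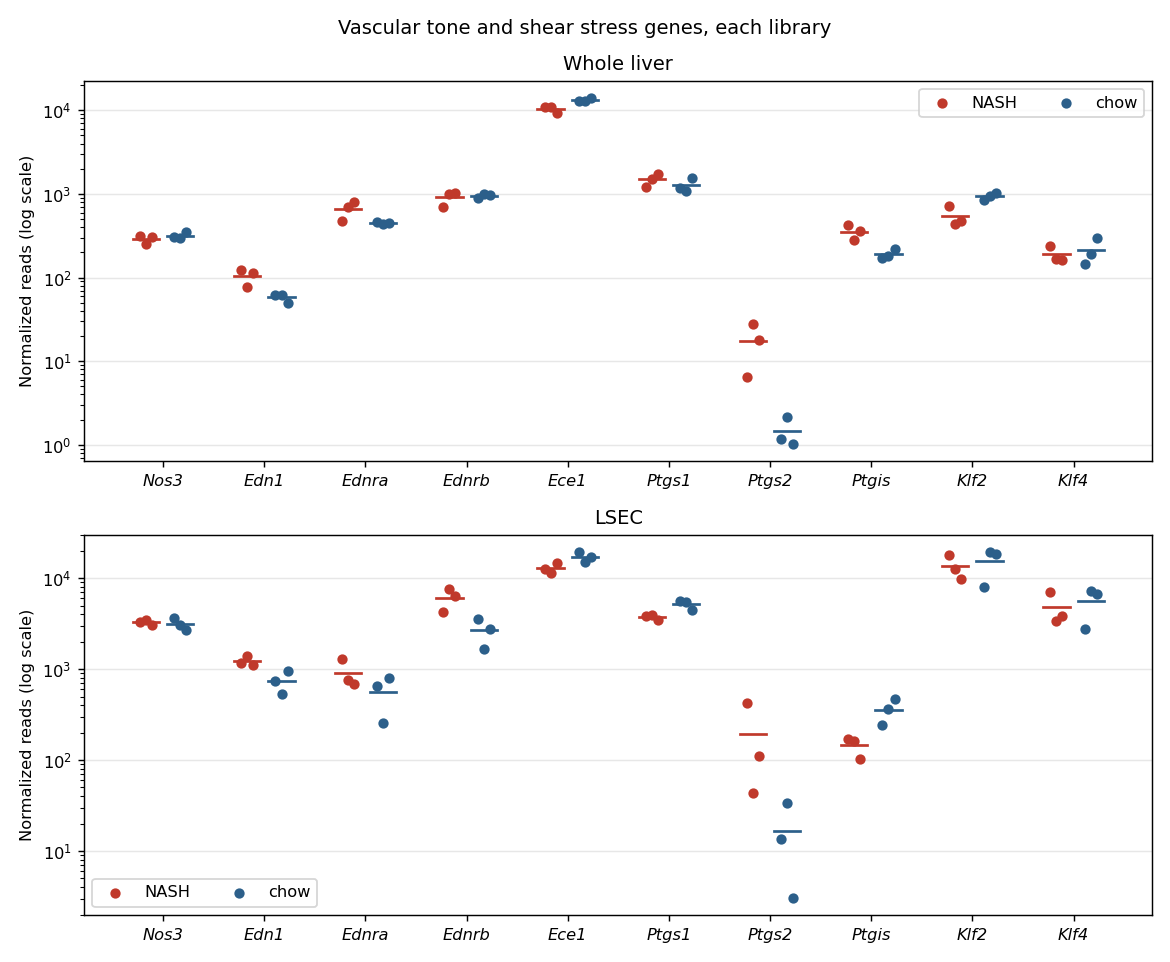
Normalized reads on a log scale for the 10 genes in whole liver (upper panel) and LSEC (lower panel), with 1 point per library, NASH in red and chow in blue, and a bar at the mean of 3. In liver the NASH and chow points separate for Edn1, Ednra, Ece1, Ptgs2, Ptgis and Klf2, and in LSEC for Edn1, Ednrb, Ece1, Ptgs1, Ptgs2 and Ptgis.

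The NASH and chow libraries did not overlap for 6 members in each tissue, 4 above and 2 below chow in liver, and 3 above and 3 below chow in LSEC. Without overlap were 57.1% of all liver genes, 29.8% above and 27.3% below chow, and 31.9% of all LSEC genes, 16.5% above and 15.4% below. Edn1, Ece1, Ptgs2 and Ptgis were among these 6 in both tissues. Ptgis was above chow in liver and below chow in LSEC. The other 3 lay on the same side in both.

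Edn1 (chr13:42301476-42307990, plus strand, GRCm38) encodes the constrictor peptide endothelin-1. It had 124, 76.4 and 115 normalized reads in NASH livers, against 61.7, 62.6 and 49.2 in chow livers. Every NASH liver lay above every chow liver. Edn1 rose in NASH livers, with a log2 fold change of 0.83 ± 0.25 (SE, limma adjusted p = 0.0218). The call was lost without NASH replicate 1 (adjusted p = 0.0854), NASH replicate 3 (0.0785) or chow replicate 3 (0.0570). NASH LSEC held 1175, 1409 and 1124 normalized reads of Edn1, against 739, 529 and 963 in chow LSEC, again without overlap. The LSEC log2 fold change was 0.77 ± 0.22 (95% interval 0.24 to 1.30) with a limma adjusted p of 0.0826, which missed the threshold, whereas the authors' deposited table gives an adjusted p of 0.0300. The sizes in the 2 tissues differed by 0.06 (liver minus LSEC, 95% interval -0.73 to 0.85, adjusted p = 0.924).

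Ece1 (chr4:137862237-137965229, plus strand) encodes the protease that releases active endothelin-1. It had 11031, 11057 and 9409 normalized reads in NASH livers, against 12797, 12904 and 13919 in chow livers. All 3 NASH livers were below all 3 chow livers, and Ece1 fell by 0.33 ± 0.09 on the log2 scale (SE, limma adjusted p = 0.0168). The call was lost without NASH replicate 3 (adjusted p = 0.0502) or chow replicate 2 (0.0525). When libraries were scaled by total reads, the median of all liver genes moved up by 0.401 and the Ece1 change became 0.08, with no call. In LSEC Ece1 had 12764, 11474 and 14533 normalized reads in NASH, against 19328, 15004 and 17029 in chow, a log2 fold change of -0.40 (95% interval -0.76 to -0.05, limma adjusted p = 0.151). The LSEC groups did not overlap, but the difference did not pass the adjusted threshold.

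Ednra (chr8:77663031-77724464, minus strand) encodes the endothelin receptor that drives contraction of stellate and smooth muscle cells. It had 473, 706 and 798 normalized reads in NASH livers, against 460.3, 437 and 449 in chow livers. NASH replicate 1 lay just above the chow livers and the other two NASH livers well above them. Ednra rose in NASH livers by 0.52 ± 0.18 (SE, limma adjusted p = 0.0376), and the call was lost without any single library other than NASH replicate 1, with adjusted p-values of 0.0700 to 0.150. NASH LSEC had 1299.6, 758 and 692 normalized reads of Ednra, against 647, 257 and 797 in chow LSEC. The LSEC groups overlapped, and the change on the log2 scale was 0.79 (95% interval -0.25 to 1.82, limma adjusted p = 0.307). The 11 stellate cell and pericyte markers summed to 61038, 41505 and 29200 normalized reads in the NASH LSEC libraries and to 26025, 11757 and 37104 in the chow ones. NASH replicate 1 was the highest and chow replicate 2 the lowest library both for Ednra and for this sum, and the part of stellate cells in the Ednra values was not tested.

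Ednrb (chr14:103814625-103844402, minus strand) encodes the receptor that endothelial cells use to bind endothelin. It had 707, 998 and 1032 normalized reads in NASH livers, against 899, 988 and 973 in chow livers. These groups overlapped, with a change on the log2 scale of -0.08 (95% interval -0.41 to 0.24, limma adjusted p = 0.668). In LSEC it had 4299, 7578 and 6384 normalized reads in NASH, against 3565, 1685 and 2782 in chow. The 3 NASH LSEC libraries were all above the 3 chow ones, and the change on the log2 scale was 1.21 ± 0.31 (95% interval 0.48 to 1.94, limma adjusted p = 0.0590). Without chow replicate 1 it was 1.45 with an adjusted p of 0.0456, with scaling by total reads 1.35 with an adjusted p of 0.0446, and the authors' deposited table gives an adjusted p of 0.00311. The difference between tissues was -1.29 ± 0.34 (liver minus LSEC), with an adjusted p of 0.0539.

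Per exonic length, Ednrb stood above Ednra in every library. In liver the ratio of Ednrb to Ednra was 1.92, 1.82 and 1.66 in NASH, against 2.51, 2.90 and 2.78 in chow. The liver ratio was lower in every NASH library than in every chow library. In LSEC it was 4.25, 12.8 and 11.8 in NASH, against 7.08, 8.43 and 4.48 in chow. The LSEC ratios overlapped and spread widely within each diet. Of the 4 endothelin genes, the ligand and contractile receptor were called higher and the converting enzyme lower in liver, and limma with the deposited scaling called none in LSEC. DESeq2 on the recovered reads called Edn1 (adjusted p = 0.0313) and Ednrb (0.00324) there.

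**Figure D2:**
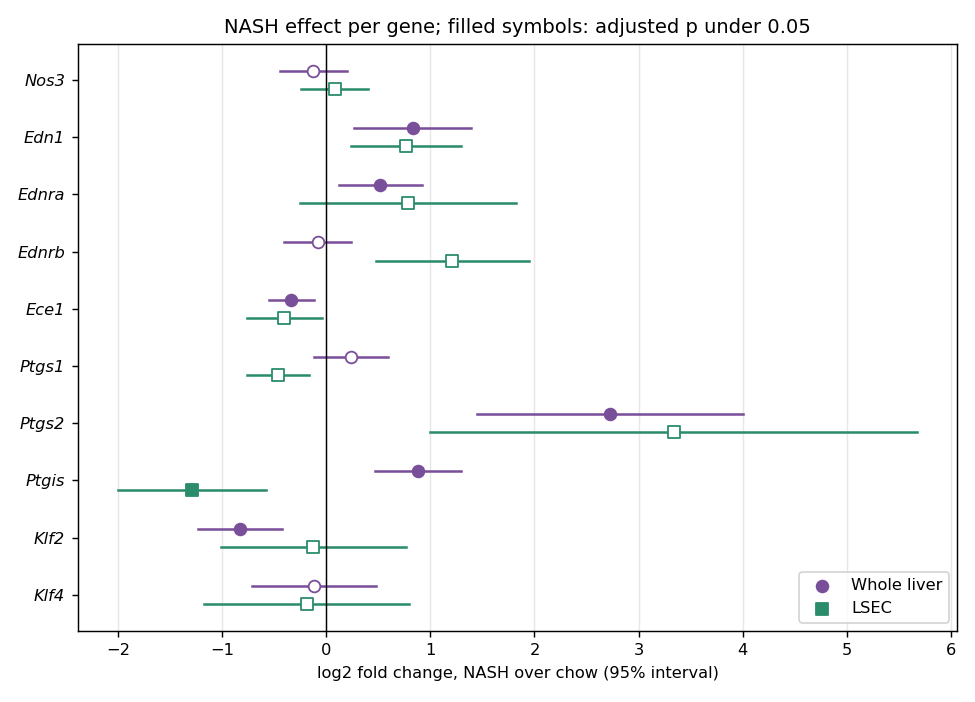
Log2 fold change of NASH over chow with its 95% interval for each gene, in whole liver (purple circles) and LSEC (green squares). Filled symbols had an adjusted p under 0.05: Edn1, Ednra, Ece1, Ptgs2, Ptgis and Klf2 in liver and Ptgis in LSEC, where the Ptgis interval lies below 0 while the liver interval lies above it.

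Nos3 (chr5:24364810-24384474, plus strand) encodes endothelial nitric oxide synthase. It had 312, 254 and 308 normalized reads in NASH livers, against 308, 296 and 348 in chow livers, and 3293, 3513 and 3071 in NASH LSEC, against 3619, 3058 and 2718 in chow LSEC. In both tissues the groups overlapped. The change on the log2 scale was -0.12 in liver (95% interval -0.45 to 0.20, limma adjusted p = 0.507) and 0.08 in LSEC (95% interval -0.24 to 0.40, limma adjusted p = 0.755). Nos3 had the smallest spread of the members in LSEC, with 1.33 times between its highest and lowest library. Of its 4132 exonic bases, Nos3 shares 1040 with Gm15587 and 294 with Atg9b, and the strands of these genes were not compared. The kit named for the liver libraries does not mark strand, so reads from these stretches cannot be assigned to 1 gene. Atg9b itself had 94.7, 96.1 and 76.2 normalized reads in NASH LSEC, against 114, 126 and 121 in chow LSEC.

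Ptgs1 (chr2:36230426-36252272, plus strand) encodes cyclooxygenase-1, the constitutive enzyme that starts prostanoid synthesis. It had 1224, 1523 and 1732 normalized reads in NASH livers, against 1172, 1089.8 and 1550.5 in chow livers. The liver groups overlapped, and the change on the log2 scale was 0.23 (95% interval -0.12 to 0.59, limma adjusted p = 0.252). With libraries scaled by total reads it was 0.65 with an adjusted p of 0.0142. Ptgs1 had 3864, 3949.5 and 3487 normalized reads in NASH LSEC, against 5584, 5536 and 4522 in chow LSEC. All NASH LSEC libraries were below all chow ones, with a log2 fold change of -0.46 ± 0.13 (95% interval -0.76 to -0.17, limma adjusted p = 0.0703). The adjusted p of the authors' deposited table is 0.0179. The difference between tissues was 0.70 ± 0.20 (liver minus LSEC, adjusted p = 0.0681).

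Ptgs2 (chr1:150100031-150108227, plus strand) encodes cyclooxygenase-2, the inducible form. In liver it rested on few reads, with 7, 28 and 22 recovered reads in NASH, against 1, 2 and 1 in chow. The depth-scaled ratio of these reads was 11.8 (95% counting interval 4.35 to 44.6). In normalized reads NASH livers had 6.43, 28.1 and 17.7, against 1.19, 2.16 and 1.03 in chow livers. Ptgs2 rose in NASH livers, with a log2 fold change of 2.73 ± 0.57 (SE, limma adjusted p = 0.00367) and no overlap. With so few reads the size depends on the pseudocount and tool, with 1.18 at a pseudocount of 10, 3.32 at a pseudocount of 0.1 and 3.46 to 3.58 with edgeR or DESeq2, each of which kept the call. In LSEC it had 420.3, 43.9 and 112 normalized reads in NASH, against 13.6, 33.7 and 3.07 in chow. The highest NASH LSEC library had 9.58 times the lowest, and the chow ones spread 11.0 times. The LSEC change was 3.34 ± 1.00 (95% interval 1.00 to 5.68, limma adjusted p = 0.0869), while the authors' deposited table has 0.00105 as adjusted p. It was 2.48 without NASH replicate 1, 4.10 without NASH replicate 2, 4.06 without chow replicate 2 and 2.51 without chow replicate 3.

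Values of other cells moved beside Ptgs2. In liver 5 of 6 neutrophil markers were called higher in NASH, and of 10 macrophage markers 7 were called higher and 2 lower. In LSEC 6 of 10 macrophage markers were called higher and no neutrophil marker was called. NASH LSEC replicate 1, the library with the most Ptgs2, also had the highest sum over 18 immediate early genes. The part of these cells and genes in the Ptgs2 values was not tested.

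Ptgis (chr2:167191805-167240604, minus strand) encodes prostacyclin synthase, which makes the dilator prostacyclin. It had 422, 279 and 362 normalized reads in NASH livers, against 169.7, 182 and 220.5 in chow livers. Every NASH liver was above every chow liver, and Ptgis rose by 0.88 ± 0.19 (SE, limma adjusted p = 0.00384). The call held in liver without each library in turn, with adjusted p-values up to 0.0222. In LSEC it had 169, 162 and 103 normalized reads in NASH, against 245, 363 and 471 in chow, a fall of 1.29 ± 0.30 on the log2 scale (SE, limma adjusted p = 0.0463). The LSEC groups did not overlap either. The LSEC call was lost without any single library other than chow replicate 1, with adjusted p-values of 0.0869 to 0.146, with scaling by total reads (0.0590) and with a pseudocount of 10 (0.0503).

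The effect of NASH on Ptgis differed between the tissues by 2.17 ± 0.36 on the log2 scale (liver minus LSEC, 95% interval 1.34 to 3.003, adjusted p = 0.0158 by a t distribution on the limma fits). It was the only member of 10 called in this comparison, against 11% of the 15788 genes present in both tables, 6.58% with the higher and 4.38% with the lower effect in liver. Without LSEC chow replicate 3 the difference was 1.95 with an adjusted p of 0.0547. Ptgis is also made by smooth muscle and fibroblast-like cells. In liver 6 of the 11 stellate and pericyte markers and 4 of the 10 smooth muscle contraction genes were called higher, and in LSEC 2 and 1. How far these cells carry the Ptgis values was not tested. Ednrb and Ptgs1 were called too with a normal distribution or an edgeR interaction term, which gave 3 members each.

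Klf2 (chr8:72319033-72321656, plus strand) encodes the flow-induced factor that keeps endothelium quiescent. It had 721, 431 and 481 normalized reads in NASH livers, against 858, 958 and 1021 in chow livers. All NASH livers were below all chow livers, and Klf2 fell by 0.83 ± 0.18 on the log2 scale (SE, limma adjusted p = 0.00435). With scaling by total reads the change was -0.41, which did not pass the test (adjusted p = 0.0874). The 10 sinusoidal endothelial markers summed to 25705 to 27798 normalized reads in NASH livers, against 32998 to 37735 in chow livers, and 5 of them were called lower and 1 higher, or 3 lower and 4 higher with scaling by total reads. The part of endothelial cell number in the Klf2 fall was not tested. In LSEC it had 18089, 12539 and 9839 normalized reads in NASH, against 8022, 19416 and 18509 in chow. The lowest library of all was a chow one and the groups overlapped, with a log2 fold change of -0.12 (95% interval -1.01 to 0.76, limma adjusted p = 0.868). The difference between tissues was -0.70 (liver minus LSEC, 95% interval -1.68 to 0.27, adjusted p = 0.297), so the fall in liver was not shown to differ from LSEC.

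Klf4 (chr4:55527143-55532466, minus strand) encodes a related factor that flow also induces. It had 239, 168 and 161 normalized reads in NASH livers, against 146, 191 and 297 in chow livers. The groups overlapped, and the NASH change on the log2 scale was -0.12 (95% interval -0.71 to 0.47, limma adjusted p = 0.736). In LSEC it had 7104, 3359 and 3847 normalized reads in NASH, against 2797, 7226 and 6736 in chow, a log2 fold change of -0.19 (95% interval -1.18 to 0.80, limma adjusted p = 0.815). Summed over the 18 immediate early genes, NASH livers had 19148 to 21625 normalized reads, against 18923, 20858 and 52549.5 in chow livers. The last of these is chow replicate 3, which also had the most Klf4. Without that library the Klf4 change in liver was 0.16, still not called.

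Immediate early genes such as Fos, Jun and Egr1 are induced within minutes when cells are disturbed, and cell isolation is known to induce them. In LSEC their sum was 327319, 120759 and 161379 normalized reads in NASH, against 71791, 268297 and 251640 in chow. Chow replicate 1 was the lowest LSEC library for this sum, for Klf2 and for Klf4. NASH replicate 1 and chow replicates 2 and 3 were the 3 highest for all 3 measures. Only Myc, of the 18, was called between the diets in LSEC. Without chow replicate 1 the log2 fold changes in LSEC were -0.54 for Klf2 and -0.63 for Klf4, neither called. Within each diet the LSEC libraries ran in opposite order for Ednrb and for the immediate early sum. Deviations from the group means were correlated with those of the immediate early genes' mean log2 level over the 6 libraries. The Pearson r was -0.951 for Ednrb, 0.918 for Klf2, 0.968 for Klf4 and -0.582 to 0.606 for the other members. Whether the isolation set the Klf2, Klf4 or Ednrb levels was not tested.

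**Figure D3:**
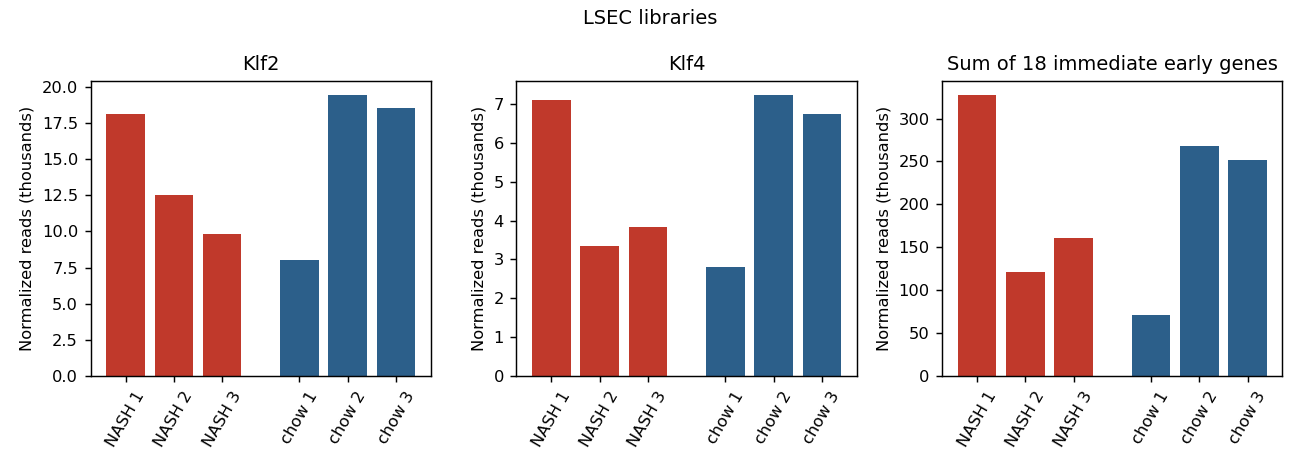
Normalized reads (axis in units of 1000) in each LSEC library for Klf2, for Klf4 and for the sum of 18 immediate early genes, with NASH bars in red and chow bars in blue. The same 3 libraries, NASH 1, chow 2 and chow 3, have the tallest bars in all panels, and chow 1 has the shortest.

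The ratio of Klf2 to Klf4 per exonic length varied less than either gene in LSEC. It was 4.20, 6.16 and 4.22 in NASH LSEC, against 4.74, 4.44 and 4.54 in chow LSEC. Across the same 6 libraries Klf2 varied 2.42 times and Klf4 2.58 times between the lowest and the highest. In liver the ratio was 4.99, 4.24 and 4.94 in NASH, against 9.70, 8.28 and 5.67 in chow. The NASH livers were thus below the chow livers in this ratio, with Klf2 lower and the Klf4 values overlapping.

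Levels can be compared between genes only per length. In RPKM, reads per kilobase of exon scaled to the library's total reads, Klf2 was the most abundant member in LSEC, with 406 ± 124 in NASH and 417 ± 170 in chow (SD, n = 3 each). Ece1 came next, with 135 ± 15.4 in NASH LSEC and 163 ± 22.8 in chow LSEC. Klf4, with 86.8 ± 36.4, and Ednrb, with 79.4 ± 22.2, followed in NASH LSEC, where the Klf4 libraries overlapped those of Ece1 and of Ednrb, and Ptgs1 (53.9 ± 3.74), Nos3 (44.3 ± 3.25) and Edn1 (32.1 ± 4.21) came after them. Ptgs1 overlapped the lowest Ednrb library, whereas Ptgs1, Nos3 and Edn1 did not overlap one another. Ednra (9.29 ± 3.32), Ptgis (3.14 ± 0.79) and Ptgs2 (2.32 ± 2.41) were the 3 lowest in NASH LSEC, and the last 2 overlapped. In chow LSEC Ednrb stood at 31.8 ± 11.6, below Nos3 at 38.3 ± 5.80 with overlapping libraries, and Ptgis at 7.07 ± 2.22 stood above Ednra at 5.25 ± 2.62, also overlapping.

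In whole liver Ece1 was the most abundant member by this measure, with 43.5 ± 1.75 in NASH and 41.2 ± 3.13 in chow. Ptgs1 (8.51 ± 1.83 in NASH, 5.42 ± 1.22 in chow) and Klf2 (6.48 ± 1.77 in NASH, 8.46 ± 0.93 in chow) came next and stood in opposite order in the 2 diets, with overlapping libraries in NASH. Edn1 was the lowest but one, with 1.09 ± 0.29 in NASH livers and 0.45 ± 0.05 in chow livers, and Ptgs2 the lowest, with 0.0836 ± 0.050 in NASH and 0.0052 ± 0.0021 in chow. These values scale with total reads, so they carry the shift of 0.401 in liver and 0.135 in LSEC between the scalings.

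**Figure D4:**
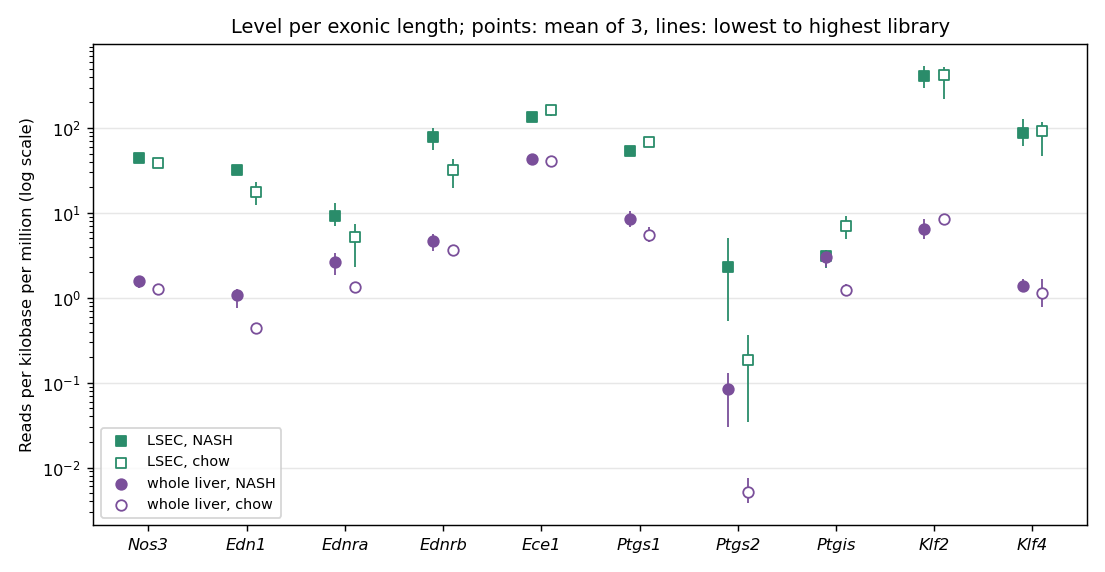
RPKM, reads per kilobase of exon scaled to total reads, on a log scale for the 10 genes, with LSEC as green squares, whole liver as purple circles, NASH filled and chow open. Points are means of 3 libraries and lines run from the lowest to the highest library. The LSEC symbols lie clearly above the liver symbols for every gene except Ptgis in NASH. There the means are 3.14 in LSEC and 3.05 in liver, and the libraries overlap.

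The members differed widely in how far their LSEC level stood above their liver level. The ratio of the LSEC mean to the liver mean, in RPKM, was 62.6 in NASH and 49.3 in chow for Klf2 and 63.7 in NASH and 80.1 in chow for Klf4. For Nos3 it was 28.4 in NASH and 30.2 in chow, and for Edn1 29.5 in NASH and 39.5 in chow. Ece1 (3.11 in NASH, 3.97 in chow) and Ednra (3.48 in NASH, 3.88 in chow) had low ratios in both diets. Ptgis had a ratio of 1.03 in NASH and 5.75 in chow, and its NASH libraries overlapped between the tissues. The Ednrb ratio ran the other way, with 16.8 in NASH and 8.62 in chow. Marker sums differed between the tissues as well. Sinusoidal endothelial markers held 1.88 to 3.08% of normalized reads in LSEC libraries and 0.0533 to 0.0643% in liver. Immediate early genes held 0.366 to 1.81% in LSEC and 0.0309 to 0.0896% in liver. Stellate cell and pericyte markers held 0.0583 to 0.337% in LSEC and 0.0442 to 0.135% in liver. How far isolation or other cells carry the members' ratios was not tested. The ratios compare libraries prepared in different ways and are descriptions without a test.

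Genes most alike to 4 members across the 6 LSEC libraries were searched among 11829 genes (mean normalized reads of 50 or more), by Pearson r of log2 normalized reads. Nos3 was closest to Asb2 (0.956), Ppcdc (0.953) and Dusp11 (0.950), and Edn1 to Nck2 (0.995), Src (0.994) and Arhgef25 (0.989). Ednrb was closest to D630045J12Rik (0.995), Tle3 (0.992) and Map3k1 (0.992), and Klf2 to Spata6 (0.991), Zfx (0.990) and Gsto1 (0.990). With 6 libraries and this many genes searched, high values are found for every gene, and they describe only these libraries.

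The wider pathways were followed in 6 lists that leave out the members. In liver 48 of 80 measured genes were called, 29 higher and 19 lower, beside 46% of all liver genes. With scaling by total reads the split was 43 higher and 8 lower, as over all liver genes it was 7878 and 904, against 4179 and 3512 as deposited. In LSEC 17 of 79 were called, 8 higher and 9 lower, beside 8.11% of all LSEC genes, and with scaling by total reads 12 higher and 7 lower. Over all LSEC genes that scaling gave 1164 higher and 273 lower, against 853 and 466. Without LSEC NASH replicate 1, 2 or 3 the LSEC count was 6, 8 or 5, and without chow replicate 3 it was 4. Of the 15 LSEC genes with the smallest adjusted p-values per list, Apln, Tbxa2r and Enpep kept their call without each library in turn, and the others lost it without at least 1. Of the 23 such liver genes all but Ece2 kept theirs.

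**Figure D5:**
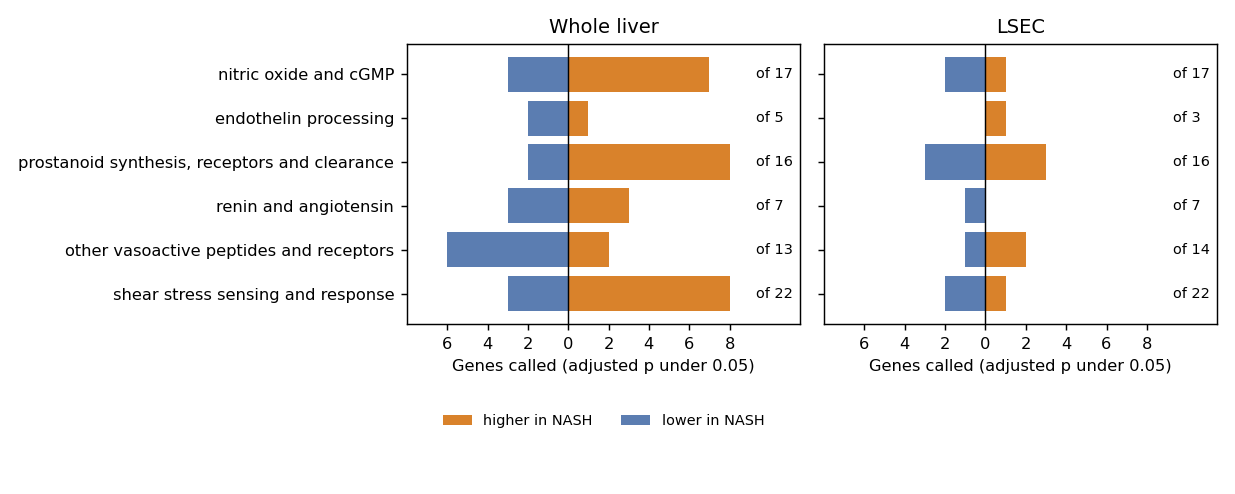
Number of genes called at an adjusted p under 0.05 in 6 pathway lists, with bars to the right for genes higher in NASH and to the left for genes lower in NASH, in whole liver (left) and LSEC (right). The numbers at the right give the genes measured, and the longest bars are 8 higher of 16 prostanoid genes and 8 higher of 22 shear stress genes in liver.

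Around Nos3, 7 of 17 genes of nitric oxide and cGMP signalling were called higher and 3 lower in NASH livers, with a median log2 fold change of 0.42. Slc7a1, an arginine transporter, rose by 1.52, and Arg1, the urea cycle arginase that competes for arginine, fell by 1.72. Gch1, which starts synthesis of the nitric oxide synthase cofactor tetrahydrobiopterin, fell by 0.64, and its feedback regulator Gchfr fell by 1.07. In LSEC 1 of 17 was called higher and 2 lower, with a median of 0.53. Slc7a1 had 701, 549.6 and 574 normalized reads in NASH LSEC, against 309, 194 and 268 in chow LSEC, a rise of 1.26 (limma adjusted p = 0.0196). Gchfr fell by 1.93 (limma adjusted p = 0.0118), and Ddah1, which degrades a natural inhibitor of nitric oxide synthase, fell by 0.76 (0.0453), a call lost with scaling by total reads. Slc7a1 was therefore called higher and Gchfr lower in both tissues.

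Of the other endothelin genes, 5 of 7 were measured in liver and 3 of 7 in LSEC. Mme encodes neprilysin, a protease that degrades endothelin and other vasoactive peptides. Mme had 130.4, 426 and 319.8 normalized reads in NASH LSEC, against 31.3, 59.8 and 59.4 in chow LSEC, and rose by 2.42 (limma adjusted p = 0.0312), the only call of this list there. It rose in NASH livers as well, by 0.89 (limma adjusted p = 0.000735). Furin, a convertase of the endothelin precursor, fell by 0.53 in liver and Ece2, a relative of Ece1, by 0.46, and both calls were lost with scaling by total reads. The list medians were -0.53 in liver and 0.43 in LSEC.

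In the prostanoid list 8 of 16 genes were called higher and 2 lower in NASH livers, with a median of 0.37. Slco2a1, the prostaglandin uptake transporter, had 1134, 1244 and 1101 normalized reads in NASH livers, against 5842, 5916 and 5930.2 in chow livers. It fell by 2.35 in liver (limma adjusted p = 2.05e-07) and by 1.19 in LSEC (0.0202). The synthases Hpgds and Ptges rose by 2.57 and 2.40 in liver, and the prostaglandin E2 receptor Ptger4 rose by 2.40 in liver and by 1.56 in LSEC. In LSEC 3 of 16 were called higher and 3 lower, with a median of 0.40, and with scaling by total reads 5 higher and 2 lower. Tbxa2r, the thromboxane receptor, had 511, 424 and 403 normalized reads in NASH LSEC, against 1309, 1667 and 1594 in chow LSEC, a fall of 1.77 (limma adjusted p = 0.00322). Pla2g4a, the phospholipase that frees arachidonic acid, rose by 1.75 in LSEC (0.0202).

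Of the 7 renin and angiotensin genes measured, 3 were called higher and 3 lower in NASH livers, with a median of -0.27, and with scaling by total reads 3 higher and 1 lower. Agtr1a, the main angiotensin II receptor, fell by 0.97 and Ace, the converting enzyme, rose by 1.34. Agt, the precursor, fell by 0.62, a call lost with scaling by total reads. Mas1, a receptor for angiotensin-(1-7), had 71, 34 and 45 recovered reads in NASH livers, against 2, 1 and 0 in chow livers, a ratio of 41.2 (95% counting interval 13.8 to 202). In LSEC Enpep, an angiotensin-cleaving aminopeptidase, had 4438, 4562 and 4593 normalized reads in NASH, against 10007, 10276 and 10967 in chow. It fell by 1.20 (limma adjusted p = 0.00322), the only call among 7 with the deposited scaling, where the list median was 0.74. With scaling by total reads 1 was called higher and 1 lower.

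Among other vasoactive peptides and receptors, 2 of 13 were called higher and 6 lower in NASH livers, with a median of -0.34, and 2 of 14 higher and 1 lower in LSEC, with a median of -0.01. With scaling by total reads the liver split was 4 higher and 1 lower. Npr1, the receptor for atrial natriuretic peptide, had 8761, 8409 and 8770.3 normalized reads in NASH LSEC, against 16091, 15862 and 15744 in chow LSEC. It fell by 0.88 in LSEC (limma adjusted p = 0.00895) and by 0.54 in liver. The peptide gene Apln rose by 2.27 in LSEC (limma adjusted p = 0.00743) and its receptor Aplnr by 2.72 (0.0382). In liver Npr2 fell by 0.80, Calcrl by 0.61 and Kng1 by 0.60, and with scaling by total reads Npr1, Calcrl and Kng1 lost their call.

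The list around Klf2 and Klf4 held 22 genes of flow sensing and response. In NASH livers 8 were called higher and 3 lower, with a median of 0.32, and with scaling by total reads 15 higher and 2 lower. Kdr, a receptor in the endothelial flow sensor, fell by 0.99, and Mef2d, a MEF2 factor, fell by 0.85. The mechanosensitive channel Piezo1 rose by 0.78 and the potassium channel Kcnj2 by 2.94. In LSEC 1 of 22 was called higher and 2 lower, with a median of -0.09. Txnip, which flow is known to repress, fell by 1.14 (limma adjusted p = 0.0203), and Nqo1, an antioxidant enzyme, fell by 1.48 (0.0273). Klf6, another KLF factor, had 9222, 5728 and 6815 normalized reads in NASH LSEC, against 3705, 3978 and 4529.6 in chow LSEC, a rise of 0.81 (limma adjusted p = 0.0451) that was lost without any single library.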

How the data were processed

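RNA-seq was measured in 12 libraries, 3 in each of 4 groups. The submitters' processing notes name build mm10 and the tools STAR, HTSeq, DESeq2, FastQC and Seurat, without versions. Deposited, 1 table per tissue, were a normalized read signal per library and the authors' log2 fold change and p-values (raw and adjusted). The authors had divided read counts by 1 factor per library, and dividing by each library's smallest value above 0 gave whole reads for all values, within 0.01. Libraries of a group differed by a chi-square of 17.36 to 102.09 per degree of freedom, so none were copies.

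Each tissue was fitted alone with limma 3.58.1 in R 4.3.3, with a variance trend, on log2(normalized reads + 1), which understates changes of genes with few reads. No filter was used, and adjusted p-values are Benjamini-Hochberg values over all genes, called under 0.05. The difference between tissues used a two-sided t distribution on the 2 fits, with the smaller degrees of freedom, over 15788 genes. Alternatives were other pseudocounts, a filter, scaling by total reads, edgeR 4.0.16 and DESeq2 1.42.0 on recovered reads, a replicate block and each library left out. Leaving out libraries for the pathway lists was added after seeing the data. The design assumed edgeR for counts, and the deposited unit called for limma. The limma fit was tested on simulated reads with the same dispersion in every gene. Genes with few reads were not among those changed, so the simulation does not cover a gene such as Ptgs2 in liver. Counting intervals cover counting error only.

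The members, marker lists and pathway lists were chosen with earlier results of these data known. Genes named were all members and up to 4 called genes per pathway list and tissue with the smallest adjusted p. Lengths and coordinates came from GENCODE M21 on mm10 (GRCm38). LSEC columns are numbered through both diets with no stated link to the replicate numbers of the labels, so LSEC libraries are numbered by position, as names only. In each tissue 22 gene names had become dates and 2 names were repeated, and these rows were kept in the fits.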

Additional observations from a re-analysis of the deposited data

Results flagged for a closer look

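The effect of NASH on Ptgis, the prostacyclin synthase gene, was flagged because it differed between the tissues by a test of the difference itself. The log2 fold change in liver was 2.17 above that in LSEC (adjusted p = 0.0158), with 0.88 in liver and -1.29 in LSEC. Of the 15788 genes measured in both tissues 11% passed this test, so 1 of 10 members is near the background. The LSEC call itself was lost without any single LSEC library other than chow replicate 1. Scaling by total reads (limma adjusted p = 0.0590) or a pseudocount of 10 (0.0503) also ended it. All 3 NASH livers were above all 3 chow livers, and all 3 NASH LSEC libraries were below all 3 chow LSEC libraries. The difference was 1.94 to 2.42 without each library in turn, and its adjusted p exceeded 0.05 only without LSEC chow replicate 3 (0.0547).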

How the results depend on the processing

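Depth limited Ptgs2 most, which had 57 reads in all NASH livers and 4 in all chow livers, and a filter on a mean of at least 10 normalized reads removed it from liver. The liver count of 6 called members was 5 or 6 under every scaling, pseudocount, filter and tool tried, and 3 to 5 with 1 library left out. The members behind the count changed, however. With scaling by total reads Ece1 (limma adjusted p = 0.437) and Klf2 (0.0874) lost their call in liver. Ptgs1 was then called higher (0.0142), and no liver member was called lower. The LSEC count of 1 became 0 with a pseudocount of 10 and 5 with DESeq2, which called 2503 LSEC genes in all against 1319, and 29 pathway genes against 17. It stayed at 1 with scaling by total reads, but the gene was then Ednrb (limma adjusted p = 0.0446) and not Ptgis (0.0590). With 1 library left out, 0 to 2 LSEC members, 124 to 1171 LSEC genes and 4 to 15 LSEC pathway genes were called. The count of members whose effect differed between tissues was 1, and 3 with a normal distribution, 3 with an edgeR interaction term, 2 with scaling by total reads and 0 to 2 with 1 library left out.

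Some changes that were not called reversed their sign, and so did Ece1. With scaling by total reads the log2 fold change in liver was 0.29 for Nos3, 0.33 for Ednrb, 0.082 for Ece1 and 0.29 for Klf4, that in LSEC was 0.016 for Klf2, and the difference between tissues was 0.071 for Nos3 and 0.0093 for Ednra. With a pseudocount of 10 the Edn1 difference was -0.016, and with the edgeR interaction term the Ptgs2 difference was 0.011. With 1 library left out, the liver changes ran over -0.18 to 0.091 for Ednrb and -0.36 to 0.16 for Klf4, and the LSEC changes over -0.017 to 0.19 for Nos3, -0.54 to 0.10 for Klf2 and -0.63 to 0.056 for Klf4. The differences then ran over -0.15 to 0.29 for Edn1, -0.59 to 0.23 for Ednra, -0.021 to 0.16 for Ece1, -1.37 to 0.24 for Ptgs2 and -0.18 to 0.51 for Klf4. Scaling by total reads moved all genes of a library together, and the median of all genes went up by 0.401 in liver and 0.135 in LSEC. The cause of the other reversals was not tested.

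The liver libraries of both diets share replicate numbers. Deviations from the group means correlated at -0.014, -0.016 and 0.098 between same-numbered libraries and at -0.086 to 0.090 between differently numbered ones. With 3 libraries per group such values cannot decide whether the numbers pair the libraries, and no pairing was assumed. With a replicate block 6 liver members and 7447 liver genes were called. The labels state no pairing of NASH and chow libraries. In LSEC no replicate block was fitted, because the LSEC columns cannot be linked to the replicate numbers of the LSEC labels.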

Other observations

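Marker lists not set beside a gene above were also counted. Across all genes 46% were called in liver, 25% higher and 21% lower, and 8.11% in LSEC, 5.24% higher and 2.86% lower. With scaling by total reads 7878 liver genes were called higher and 904 lower. A list count near or below these shares, such as that of the general endothelial markers in liver, is not a result about the list. In NASH livers all 6 cholangiocyte markers were called higher and 8 of 10 hepatocyte markers lower, with the deposited scaling and with scaling by total reads alike. Of the large vessel endothelial markers 5 of 10 were called higher and 2 lower in NASH livers. Of 11 general endothelial markers 1 was called higher and 2 lower in NASH livers, but 6 higher and 1 lower with scaling by total reads. In NASH LSEC 5 of 10 sinusoidal endothelial markers were called lower and 1 higher, or 3 lower and 1 higher with scaling by total reads. Of the general endothelial markers 1 was called higher and 1 lower in NASH LSEC, or 1 higher and none lower with scaling by total reads.

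The 6 cholangiocyte markers summed to 10393 to 47485 normalized reads in NASH LSEC, against 4138 to 9402 in chow LSEC, with a median log2 fold change of 1.74. Limma called 1 of them higher and DESeq2 all 6. Of the large vessel markers 1 of 10 was called higher in NASH LSEC. No hepatocyte marker was called there, with a median log2 fold change of 1.52. Of 5 mesothelial markers 2 were called higher in NASH livers and 1 in NASH LSEC.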
